A study of Mus musculus with 13 samples.

Results

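Epidermal stem cells of back skin from mice aged 1 year were compared between animals with and without a knockout (KO) of Fbln7, the gene of fibulin-7. The comparison used 7 of the 13 RNA-seq libraries of the series: the 4 titled 1y_KO and the 3 titled 1y_WT (wild type, WT), chosen by their titles. All came from mice of strain C57BI/6, as the labels spell it. The other 6 libraries, 3 WT and 3 KO at 2 months, were used only to ask whether the difference between genotypes differed with age. Back skin was digested with trypsin, and the cells were stained with antibodies for flow sorting. The antibodies and gates, the design of the knockout allele, the sex of the animals and any pooling of animals are not given in the sources used here. Nothing in the labels says that the libraries of a group came from separate animals, so p-values measure only the spread between these libraries.

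Epidermal stem cells lie in the basal layer of the epidermis, where they divide and are anchored to the basement membrane through hemidesmosomes, adhesion plaques built around collagen XVII and integrin α6β4. Cells that leave this layer stop dividing and pass through the spinous and granular layers, switching from keratins 5 and 14 to keratins 1 and 10 and then to the proteins of the cornified barrier. Fibulins are secreted glycoproteins that bind other components of the extracellular matrix, and fibulin-7 is one of the shorter members of the family. In skin, the basal layer receives Wnt, Notch, BMP and EGF-receptor signals, and its adhesion to the matrix takes part in holding cells in the stem cell state.

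The 7 libraries held between 7585340 and 11592177 reads assigned to genes and fell into 2 sets by a token in their file names. These are called runs here, but whether the token marks a sequencing run, another batch or a submission is not given in the sources used here. WT replicates 1 and 2 and KO replicates 1 and 2 belonged to the first run, and WT replicate 3 and KO replicates 3 and 4 to the second. Between 65 and 67.3% of reads lay in exons in the second run and between 49 and 50.6% in the first, so the edgeR model behind the values below carried a term for the run. The basal keratins were abundant in every library: Krt5 lay between 4529 and 7375 CPM (reads scaled to a common library size) and Krt14 between 3318 and 6930 CPM. Dlx1, a marker reported for a slow-cycling epidermal population, lay at or near 0 (0 to 0.776 CPM). Reads of the X-inactivation transcript Xist and the Y-linked gene Ddx3y put WT replicate 1 and KO replicates 2 and 3 apart from the other 4 libraries as female, so both groups mixed sexes.

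The share of RNA from outside the basal layer differed between libraries within a group. The mean log2 CPM of 45 spinous and granular genes was 3.18 and 3.54 in the WT libraries of the first run and 6.05 in WT replicate 3. In KO it was 3.47 in replicate 1 and 6.05, 5.84 and 6.01 in replicates 2 to 4. Thus WT replicates 1 and 2 and KO replicate 1 were low, and the other 4 libraries were high. Within the first run only KO replicate 2 was high, and without it the libraries of each run had like levels of these genes. Markers of Langerhans and other myeloid cells summed to 31.2 to 224 CPM in WT and 73.7 to 406 CPM in KO, with Cd207, which makes the Birbeck granule protein of Langerhans cells, between 0.487 and 24.7 CPM. Of these markers 14 of 14 tested had a higher mean in KO. Their median log2 fold change (KO over WT) was 1.51, and 0.69 without KO replicate 2. Fibroblast markers summed to 135 CPM in WT replicate 3, against 5.39 and 6.94 CPM in the other WT libraries and 10.2 to 25.1 CPM in KO. Col1a1, a chain of dermal collagen I, made up 45.1 CPM of the sum in WT replicate 3 and lay between 0.73 and 1.4 CPM elsewhere. T-cell markers summed to 21.7 to 49.7 CPM in WT and 28.3 to 55.5 CPM in KO. Adipocyte and mast-cell markers stayed at or under 2.49 CPM in every library, with Adipoq, Cfd and Tpsb2 at 0. Schwann-cell and neuronal markers summed to 312 to 350 CPM in the first run and 84.1 to 146 CPM in the second, and erythroid markers to 2.89 to 55.4 CPM over all libraries. The plot of list medians gives each list with all libraries and without KO replicate 2. Each of the 26 list medians moved by over 1.5 times on leaving out at least 1 library, and 11 turned sign, several of them from values near 0. WT replicate 3 was the only WT library of its run, so values without it rest on the first run alone. The Hippo-YAP median moved from -0.11 to -0.04 without KO replicate 2. In such bulk samples, fewer cells of a type and less RNA per cell cannot be told apart.

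**Figure D1:**
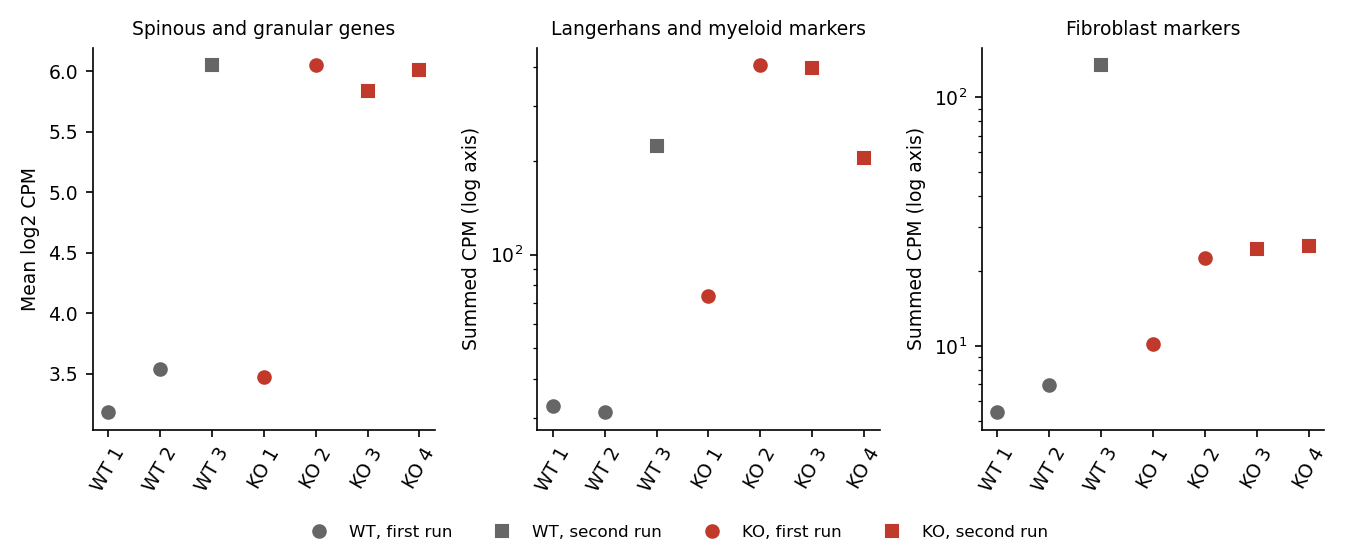
The 3 panels plot, for each 1-year library, the mean log2 CPM of the spinous and granular genes and the summed CPM of the Langerhans/myeloid and fibroblast marker lists (log axes). Circles are the first run, squares the second, grey WT and red KO. WT 3, KO 2, KO 3 and KO 4 lie between 5.84 and 6.05 in the left panel, and WT 3 stands alone at 135 CPM in the right panel.

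Fbln7 itself was a scarce transcript in these cells. The gene spans chr2:128862981-128897034 on the plus strand (mm10), and it collected 19, 14 and 38 reads in the WT libraries and 9, 10, 28 and 0 reads in KO replicates 1 to 4. As CPM these were 2.56, 1.7 and 2.72 in WT and 1.37, 1.55, 2.06 and 0 in KO, where 0 reads allow up to 0.249 CPM. Each KO library was below the WT libraries of its own run, but KO replicate 3 lay above WT replicate 2. The WT mean of 2.33 ± 0.548 CPM (SD, n = 3) was above the KO mean of 1.25 ± 0.88 CPM (SD, n = 4). An exact two-sided permutation test over the 35 arrangements gave p = 0.143, with 0.0286 the smallest p possible. When labels were exchanged only within runs, the exact permutation p was 0.222 over 18 arrangements, with a smallest possible p of 0.0556. Of the gene's reads 55.1% lay in exons. Exon reads alone numbered 9, 9 and 33 in WT and 2, 8, 4 and 0 in KO. Scaled to the exon reads of each library, the WT mean was 2.83 ± 1.1 CPM (SD, n = 3) and the KO mean 0.803 ± 0.941 CPM (SD, n = 4). The exact permutation p was 0.0857 over all arrangements and 0.111 when labels were exchanged within runs. KO replicate 2, at 2.17 exon CPM, fell among the WT libraries, and the other 3 KO libraries lay at or under 0.525. The part of the gene that the allele removes is not given in the sources used here, and reads from outside it would check nothing, so these values do not settle whether each label is right.

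**Figure D2:**
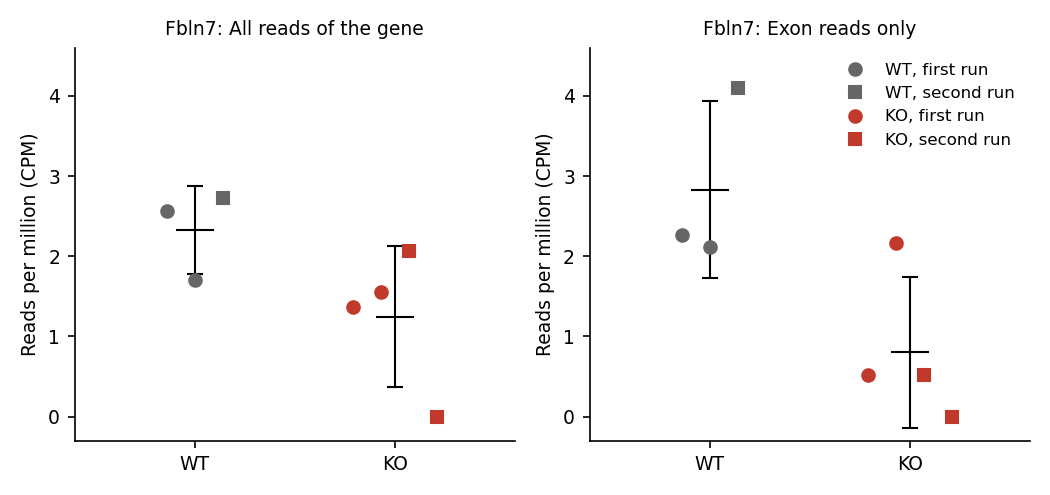
Fbln7 in each 1-year library as CPM of all reads of the gene (left) and of exon reads (right). Points are libraries (circles first run, squares second run), and bars are mean ± SD for 3 WT and 4 KO libraries. KO 4 has 0 reads in both panels, and KO 2 lies among the WT libraries for exon reads.

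No gene passed the test between genotypes at 1 year. Of 15166 genes tested with edgeR's quasi-likelihood test, 0 (0%) had a Benjamini-Hochberg adjusted p under 0.05, and the smallest adjusted p was 0.812. At an unadjusted p under 0.05 there were 470 genes with a higher mean in KO (3.1%) and 383 with a lower one (2.53%), and the median log2 fold change (KO over WT) of all genes was 0.02. Every KO library lay above every WT library of its own run for 1137 genes (7.5%) and below for 1029 (6.78%). In counts simulated at these depths and spreads, the same test called 55% of 200 genes changed by 1 on the log2 scale and 92% of those changed by 2, and 11 and 13 unchanged genes were called with them. DESeq2 called 6 of the 15166 genes: Rps27, Rpl10, Gnb1l, Cdk8 and Vaultrc5 were higher and Sult5a1 was lower. Cdk8, a kinase of the Mediator complex, is named here only because DESeq2 called it. It collected 107304 reads over the WT libraries and 180618 over the KO libraries, and the origin of these reads was not tested. When the TPM deposited by the authors were tested with limma instead, 0 genes passed and the split of unadjusted calls was 104 higher and 1012 lower. On that scale the median of all genes moved to -0.16, so directions below are read against that shift. The principal component that held 54.4% of the variance separated the runs, and the next (16.6%) separated KO replicate 2 from the other 6 libraries.

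The 10 genes leading on the higher side were Pknox2, Gnb1l, Rps27, Cacnb2, Snhg15, n-R5s1, Chchd2, Enox1, Rpl10 and Vaultrc5. They had unadjusted p between 0.000218 and 0.00228 in edgeR's quasi-likelihood test, and none passed, each having an adjusted p of 0.812. Genes were ranked by that p among those with at least 5 CPM whose KO libraries all lay on 1 side of the WT libraries of their run, and in place of unnamed gene models the next named gene was taken. Pknox2, a homeobox transcription factor of the TALE class on chr9:36890982-37147407, had 4.85, 5.72 and 6.52 CPM in WT and 9.14, 14.1, 19.3 and 24.6 CPM in KO. All 4 KO libraries were above all 3 WT libraries, with a log2 fold change of 1.39 (SE 0.26). Only 7.69% of its reads were exonic, but its few exon reads had a higher mean in KO as well (log2 fold change 1.91, SE 0.80, unadjusted p = 0.0367 by edgeR). Cacnb2, an accessory subunit of voltage-gated calcium channels, had 16.6, 13.8 and 9.17 CPM in WT and 20, 36.2, 18.9 and 24 CPM in KO, a log2 fold change of 1.02 (SE 0.24), with 9.02% of its reads in exons. Gnb1l, which encodes a WD-repeat protein, had a log2 fold change of 0.78 (SE 0.17), and Enox1, a cell-surface NADH oxidase, one of 0.63 (SE 0.16). For these genes 1.18% and 0.597% of reads were exonic, so their values rest almost wholly on intronic reads or reads of transcripts lying within their introns. In both, exon reads alone were not past an unadjusted p of 0.05 by edgeR (0.309 and 0.338).

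The other leading genes on the higher side were read mainly over exons. Rps27, a protein of the small ribosomal subunit, had 53.8 and 52.3 CPM in WT and 76.8 and 91.4 CPM in KO in the first run, and 145 CPM in WT against 190 and 222 CPM in KO in the second. Its groups did not overlap within either run, and its log2 fold change was 0.60 (SE 0.13). Rpl10, of the large subunit, lay at 163 and 171 CPM in WT against 267 and 259 CPM in KO in the first run, and at 272 against 335 and 336 CPM in the second (log2 fold change 0.51, SE 0.13). Chchd2, a small protein of the mitochondrial intermembrane space, had a log2 fold change of 0.60 (SE 0.15). Snhg15, the long noncoding host transcript of a small nucleolar RNA, lay at 21.7 and 24.8 CPM in WT against 37.9 and 36.2 CPM in KO in the first run and at 10.3 against 16.9 and 15.1 CPM in the second. n-R5s1 is a copy of 5S ribosomal RNA and Vaultrc5 a vault RNA. The first is 1 of many near-identical copies and its value is uncertain, because how the authors' counting split shared reads is not given in the sources used here. For Rps27, Rpl10, Chchd2, Snhg15, n-R5s1 and Vaultrc5 between 88.1 and 100% of reads lay in exons, so a fit to exon reads alone is no separate measure of them.

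The 10 genes leading on the lower side were Sult5a1, Egln1, Znrf1, Ston2, Rmi2, Zfp992, Nfya, Dip2b, Map3k14 and Afap1l1. Their log2 fold changes lay between -1.18 and -0.50, and the edgeR unadjusted p between 0.000892 and 0.00444. Egln1, the oxygen-sensing prolyl hydroxylase that marks HIF-1α for degradation, had 64.2 and 76.7 CPM in WT against 48.7 and 45.6 CPM in KO in the first run, and 101 CPM in WT against 72.1 and 73.3 CPM in KO in the second. The log2 fold change was -0.53 (SE 0.12), and with exon reads, 78.2% of its total, it was -0.50 (SE 0.12). Nfya, the DNA-contacting subunit of the CCAAT-binding factor NF-Y, had 26.2, 37.4 and 39.3 CPM in WT and 21.9, 20.3, 25.4 and 26.3 CPM in KO (log2 fold change -0.60, SE 0.16). Map3k14, the kinase of the non-canonical NF-κB pathway, had 29, 46.7 and 27.6 CPM in WT and 20.7, 25.8, 18.1 and 17.5 CPM in KO (log2 fold change -0.68, SE 0.19). Its exon reads alone, 46.1% of its total, gave -0.29 (SE 0.22). Rmi2, a partner of the BLM helicase, had the largest difference of the 10 at -1.18 (SE 0.29), with 15.3% of reads in exons, and exon reads alone gave -0.61. Sult5a1, a sulfotransferase and the gene of smallest p, was at -0.84 (SE 0.19), and at -0.23 with exon reads. Znrf1 is a ubiquitin ligase, Ston2 an endocytic adaptor and Afap1l1 an actin-associated protein. With exon reads Znrf1 went from -0.66 to -0.35, Ston2 from -0.71 to -0.33 and Afap1l1 from -0.67 to -0.44. For 7 of the 10 genes all 4 KO libraries lay below all 3 WT libraries, as they did for 3% of all genes, whereas on the higher side it was 4 of 10 against 2.06%. These shares follow in part from the ranking. Exon reads, which are part of the counts that ranked the genes, gave an unadjusted p under 0.05 by edgeR in 4 of the 10: Egln1, Zfp992, Nfya and Dip2b.

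**Figure D3:**
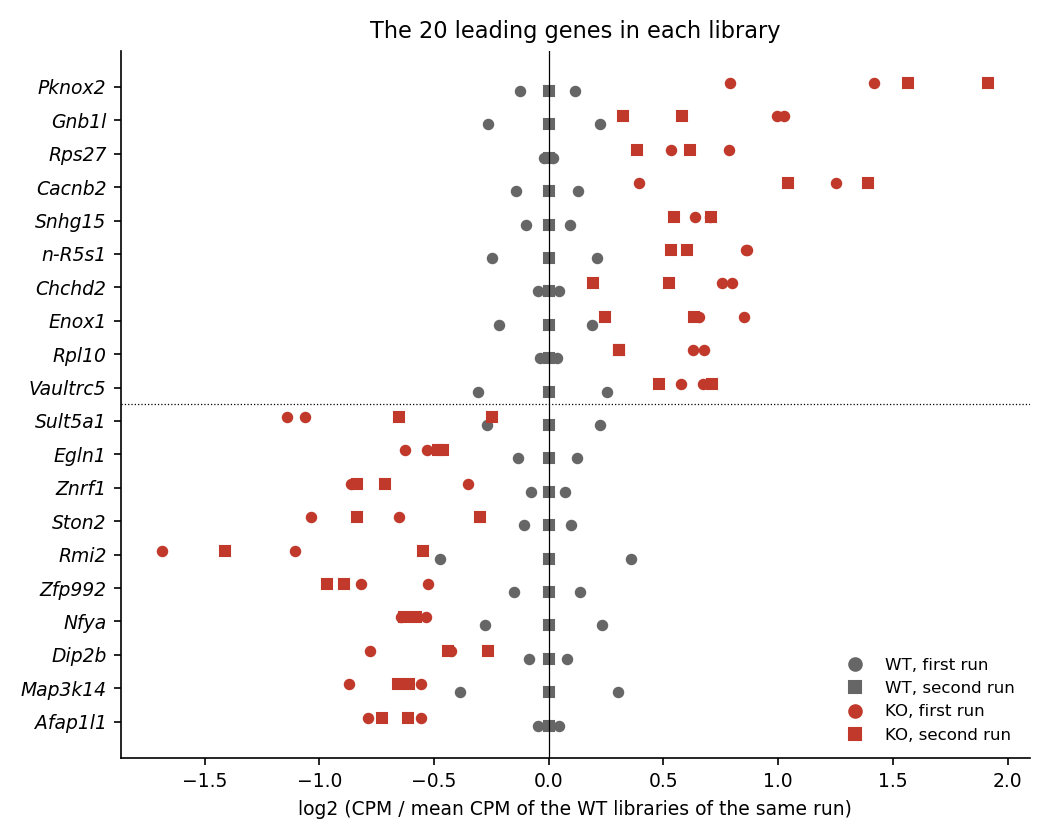
For each of the 20 leading genes (10 higher above the dotted line, 10 lower below it), points give the log2 ratio of a library's CPM to the mean CPM of the WT libraries of its run. Circles are the first run and squares the second, so the single WT library of the second run lies at 0 by construction. KO libraries (red) lie on 1 side of the WT libraries (grey) of their own run for each gene, which the ranking required.

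Ribosomal protein genes had a higher mean in KO in 80 of 80 cases. This set was taken by gene name after its values had been seen and has no test of its own. The median log2 fold change was 0.32, with a range from 0.003 to 0.62, against 0.02 for all genes tested. The unadjusted p of edgeR was under 0.05 for 41 of the 80, and every KO library lay above every WT library of its run for 49 of 80, where the shares over all genes were 3.1% and 7.5%. Rps13 lay at 94.2, 93.2 and 137 CPM in WT and 140, 136, 165 and 174 CPM in KO (log2 fold change 0.45, SE 0.12). Rps12 lay at 105 and 106 CPM in WT against 197 and 180 CPM in KO in the first run, but at 81.2 CPM in WT replicate 3 against 78.2 and 122 CPM in KO in the second. Rps12 also had 52.8% of reads in exons, and its introns hold small nucleolar RNAs. Rps15a lay at 200, 170 and 133 CPM in WT and 282, 232, 166 and 187 CPM in KO. As a share of all gene reads, the family made up 2.72, 2.58 and 3.67% in WT and 3.24, 2.83, 3.81 and 4% in KO. Without KO replicate 2 the median was 0.36, and leaving out any 1 library gave 0.25 to 0.40. The first run alone gave 0.41 and the second run alone, with 1 WT library, gave 0.17. Exon reads gave 0.23. On the TPM scale the median was 0.04 against -0.16 for all genes.

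Ribosomal proteins belong to the messages that begin with a run of C and T, the 5′ terminal oligopyrimidine tract through which their translation is regulated. The windows below are shown because these 5 genes led the family by p and had an entry in the RefSeq promoter table (GRCm38.p6). Each runs from 20 bases before to 10 bases after the annotated start, in the direction of transcription. Capitals mark an unbroken run of at least 7 C or T that comes within 5 bases of the start.
Rps27, chr3:90213639-90213668, minus strand: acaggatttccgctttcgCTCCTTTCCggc
Rpl10, chrX:74270796-74270825, plus strand: ctatggttgttacagtggaagataggccgc
Rps13, chr7:116334181-116334210, minus strand: cgcgcgagagcaaacgtcggtgagtggcgt
Rps12, chr10:23787200-23787229, minus strand: ttaaataccgtcatgcggccaccgccggcc
Rps15a, chr7:118116138-118116167, minus strand: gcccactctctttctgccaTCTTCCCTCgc
The run was found in Rps27 and Rps15a and not in these windows of Rpl10, Rps13 and Rps12. Of the 60 family members with an entry, 28 (46.7%) had such a run, against 17.3% of the 10841 tested genes with an entry. For these shares a gene was counted if any of its entries had a run, whereas each window shows the gene's first entry only. The search was on the sense strand, and a match describes letters near an annotated start only.

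Short genes as a whole had higher values in KO. The median log2 fold change of protein-coding genes was 0.20 for 300 genes with up to 1000 bp of exon, 0.14 for up to 2000 bp, 0.07 for up to 4000 bp, -0.005 for up to 6000 bp and -0.06 for 4521 genes over 6000 bp. Leaving the ribosomal proteins out changed none of these medians by more than 0.01, and exon reads gave 0.17 to -0.06 across the same classes. On the TPM scale the order of the classes was kept, from -0.02 to -0.23. The ribosomal protein genes had a median exon length of 1805 bp and all protein-coding genes one of 4617 bp. The median of the ribosomal proteins (0.32) was above that of the shortest class (0.20), and the part of length in their difference was not tested.

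Oxidative phosphorylation, by which mitochondria make ATP, was the list of the 26 with the most members above WT in both runs. Of 34 members tested 30 had a higher mean in KO, with a median log2 fold change of 0.19, and 6 had an unadjusted p under 0.05 in edgeR, all higher (3.1% over all genes). In 10 of 34 every KO library was above the WT libraries of its run (7.5% over all genes), and in 0 of 34 every one was below. Cycs, cytochrome c, lay at 15.6, 16.1 and 15.1 CPM in WT and 23.9, 27.8, 15.8 and 24 CPM in KO (log2 fold change 0.57, SE 0.20). Uqcrh, a hinge subunit of complex III, lay at 79, 65.9 and 57.6 CPM in WT and 106, 94, 64.9 and 75.9 CPM in KO (0.39, SE 0.13). KO replicate 3 was close to WT replicate 3 for both genes. Sdha, the catalytic subunit of complex II, overlapped between groups, with 59.3, 64.2 and 51.8 CPM in WT and 56.1, 61.9, 61.2 and 48.7 CPM in KO. Without KO replicate 2 the median of the list was 0.22, and without WT replicate 3 it was 0.29. It was 0.15 with exon reads, and -0.06 on the TPM scale where all genes were at -0.16. The 13 protein genes of the mitochondrial genome were also higher in mean in 13 of 13 cases, with a median of 0.20 and 1 gene, mt-Atp8, at an unadjusted edgeR p under 0.05 (log2 fold change 0.42, SE 0.15). This set was added after its values were seen. The nuclear list had a median exon length of 2178 bp, in the lower part of the length classes above.

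**Figure D4:**
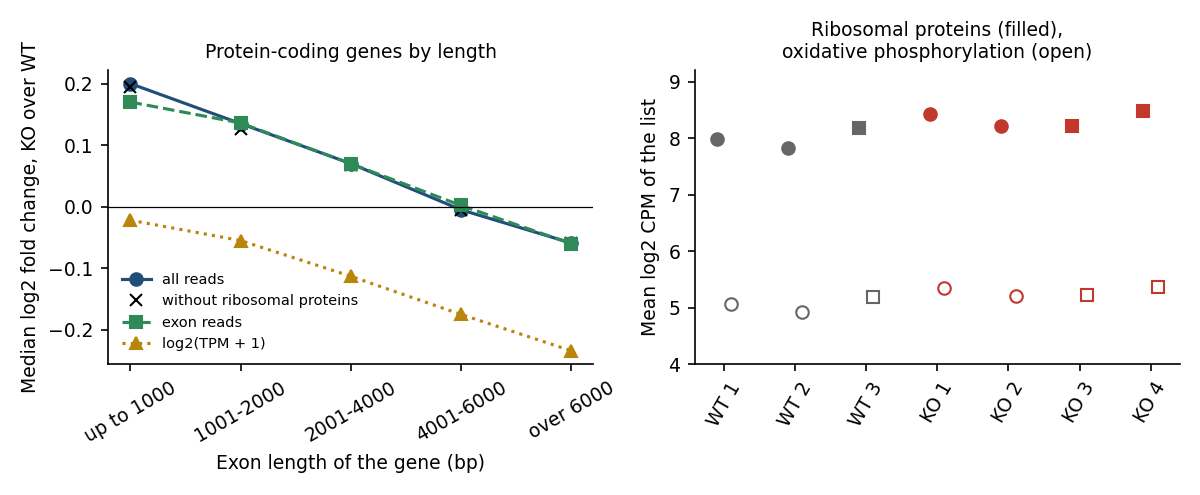
Left, median log2 fold change (KO over WT) of protein-coding genes in 5 classes of exon length, from all reads, without ribosomal proteins, from exon reads and on the log2(TPM + 1) scale. Right, mean log2 CPM of the ribosomal protein genes (filled) and the oxidative phosphorylation list (open) in each library, WT grey and KO red, circles first run and squares second. Medians fall from 0.20 in the shortest class to -0.06 in the longest.

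Genes of the basement membrane and hemidesmosomes, which tie the basal layer to the dermis, had a lower mean in KO in 21 of 25 cases. The median log2 fold change was -0.27, and 8 members, among them Col17a1, Lama5, Lamb1, Lamc1, Col4a5, Col7a1 and Frem2, lay below WT in both runs, against 6.78% of all genes. At an unadjusted edgeR p under 0.05, 2 were lower and 1 higher, against 2.53% and 3.1% of all genes, and 0 passed the adjusted test. Col17a1, the transmembrane collagen of hemidesmosomes, lay at 2666, 2394 and 1826 CPM in WT and 2250, 1450, 1619 and 1600 CPM in KO (log2 fold change -0.34, SE 0.17). Itga6, the α6 integrin of the same structure, lay at 641, 666 and 431 CPM in WT and 535, 383, 438 and 384 CPM in KO, with an overlap in the second run (-0.34, SE 0.16). Frem2, a protein of the sublamina densa, was the gene of smallest p, with 50.1, 52.9 and 44.4 CPM in WT and 34.7, 35.7, 39.8 and 40.1 CPM in KO (-0.39, SE 0.14). Its partner Fras1 went the other way, from 2.29, 2.92 and 5.3 CPM in WT to 3.5, 10.6, 5.96 and 9.2 CPM in KO (1.01, SE 0.42). Without KO replicate 2 Col17a1 was at -0.17, Itga6 at -0.17, Fras1 at 0.48 and Frem2 at -0.34. Without WT replicate 3 Itga6 was at -0.51. Col4a5, a chain of basement-membrane collagen IV, had a log2 fold change of -0.32 (SE 0.14). Without KO replicate 2, when the suprabasal levels were alike within each run, the list's median was -0.12. Its members are long, with a median exon length of 8039 bp, a class whose median was -0.06.

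The basal keratinocyte list had a smaller median difference. It shares Itga6, Itgb4, Col17a1, Dst, Plec, Cd151 and Lamb3 with the list above. The 25 list members had a median of -0.16, with 17 lower and 8 higher, and of 0.003 without KO replicate 2. Bcl11b, a zinc-finger regulator of epidermal cells, lay below WT in both runs, with 290, 318 and 243 CPM in WT and 249, 210, 220 and 208 CPM in KO (log2 fold change -0.32, SE 0.13). Dapl1, a small death-associated protein, lay above WT in both runs, with 96.8, 93 and 90.3 CPM in WT and 117, 144, 97.2 and 103 CPM in KO (0.33, SE 0.13). Krt15 overlapped between groups, at 2633 to 4002 CPM in WT and 3058 to 4424 CPM in KO. Trp63, the master transcription factor of stratified epithelia, lay at 779, 1017 and 798 CPM in WT and 730, 686, 819 and 773 CPM in KO, which also overlapped. Among genes reported for stem cell states, Lrig1, of the junctional zone, lay at 143 to 161 CPM in WT and 148 to 192 CPM in KO. Axin2, a Wnt target, lay at 86.6 to 131 CPM in WT and 87.5 to 115 CPM in KO. Slc1a3, a glutamate transporter that marks cycling epidermal cells, lay at 13.3 to 22.7 CPM in WT and 11.4 to 19.9 CPM in KO. Cd34, a marker of follicle bulge cells, was at 0.539 and 0.365 CPM in the first-run WT libraries and 10.7 CPM in WT replicate 3, and at 1.07, 24.8, 26.6 and 17.8 CPM in KO. It was thus above 10 CPM in the same 4 libraries that had high suprabasal levels. The median of the 12 stem-state genes went from 0.51 to 0.08 without KO replicate 2.

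Differentiation and appendage genes were high in those same 4 libraries, 1 WT and 3 KO. The 19 spinous genes had a median log2 fold change of 0.52 with all libraries and -0.01 without KO replicate 2, and 0 had an unadjusted edgeR p under 0.05, where 3.1% of all genes were higher and 2.53% lower at that threshold. The 26 granular and cornified genes went from 1.38 to -0.02, the 31 hair follicle genes from 0.23 to -0.11 and the 14 sebaceous genes from 1.55 to 0.24. Krt10 lay at 925, 908 and 3303 CPM in WT and 1012, 2042, 2136 and 3483 CPM in KO, and Flg, the precursor of filaggrin, at 11.5, 10.7 and 119 CPM in WT and 12.3, 138, 105 and 114 CPM in KO. Krt79, of the upper follicle, ran from 7.41 to 248 CPM within WT and from 13.1 to 295 CPM within KO. Above WT in both runs lay 0 of the 19 spinous, 2 of the 26 granular, 4 of the 31 follicle and 3 of the 14 sebaceous genes, against 7.5% of all genes. Aloxe3, a lipoxygenase of the epidermal barrier, lay at 3.77, 3.53 and 4.37 CPM in WT and 4.26, 11.2, 8.32 and 8.87 CPM in KO (1.03, SE 0.35), and at 0.64 without KO replicate 2. Plin2, which coats lipid droplets, lay at 4.99, 5.84 and 11.1 CPM in WT and 6.85, 27.6, 19.9 and 21.2 CPM in KO (1.32, SE 0.44), and at 0.66 without that library. Pparg, the sebocyte and adipocyte nuclear receptor, was under 0.7 CPM in WT replicates 1 and 2 and KO replicate 1, at 2.79 CPM in WT replicate 3 and at 8.07, 8.91 and 7.13 CPM in KO replicates 2 to 4. Gas1, a follicle germ marker, lay at 13.1, 10.1 and 12.6 CPM in WT and 13.6, 18.3, 19.7 and 16.7 CPM in KO (0.49, SE 0.20).

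**Figure D5:**
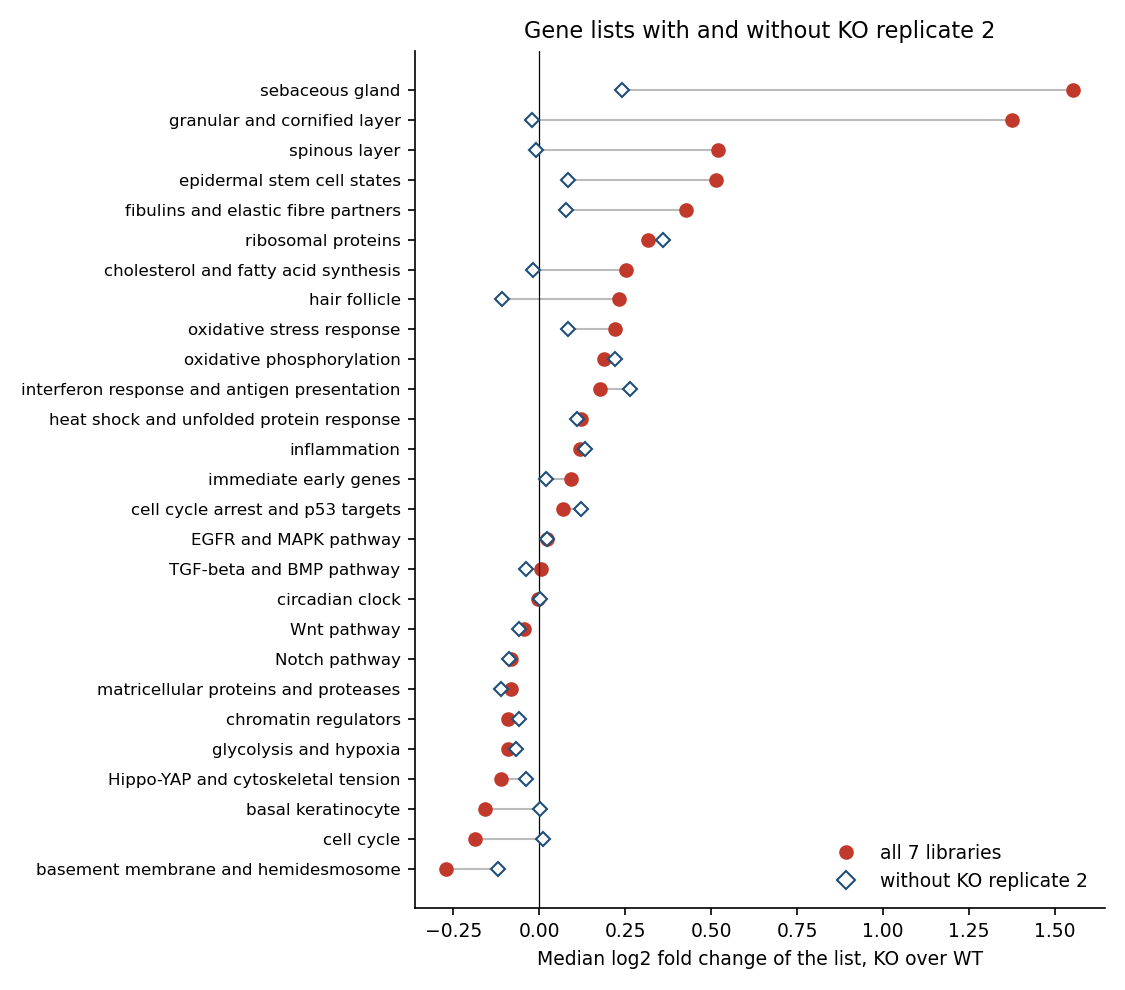
Median log2 fold change (KO over WT) of each of the 26 lists and the ribosomal protein genes, with all 7 libraries (red circles) and without KO replicate 2 (open diamonds). Without that library the spinous, granular and cell-cycle lists lie within 0.02 of 0, the sebaceous list moves from 1.55 to 0.24, and the ribosomal protein list is at 0.36.

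Cell-cycle genes had a lower mean in KO in 39 of 45 cases, with a median log2 fold change of -0.19 that became 0.01 without KO replicate 2 and -0.41 without WT replicate 3. Mki67, present in dividing cells, lay at 142, 224 and 142 CPM in WT and 156, 78.7, 128 and 114 CPM in KO, and Top2a, which untangles replicated DNA, at 78.5, 134 and 86.8 CPM in WT and 106, 60.4, 83.3 and 82.2 CPM in KO. Both groups overlapped, and KO replicate 2 was the lowest library for each gene. E2f7, a repressor of the E2F program, was the member of smallest p, at 7.68, 12.2 and 11.1 CPM in WT and 5.18, 4.5, 6.48 and 10.8 CPM in KO (-0.75, SE 0.30). Ccne1, cyclin E1, lay at 2.56 to 4.44 CPM in WT and 1.41 to 2.59 CPM in KO (-0.96, SE 0.43, and -0.61 without WT replicate 3). Of 21 arrest and p53 genes 14 were higher in mean, with a median of 0.07 that became 0.32 without WT replicate 3 and 0.20 without KO replicate 3. Cdkn2a, the senescence gene of the p16 and p19 proteins, had 0 or 1 reads in each WT library and 1 or 2 in each KO library. Cdkn1a, p21, lay at 17.1, 19.1 and 67.1 CPM in WT and 21.8, 36.8, 49.8 and 77.9 CPM in KO. It was higher in the libraries with high suprabasal levels than in the others. Bbc3, the pro-apoptotic p53 target PUMA, was above WT in both runs, at 3.77, 2.92 and 2.72 CPM in WT and 5.33, 5.9, 5.01 and 6.8 CPM in KO (0.90, SE 0.33).

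Chromatin regulators held 4 genes with an unadjusted edgeR p under 0.05, all lower in KO, of 25 tested (2.53% over all genes), and 7 members lay below WT in both runs (6.78% over all genes). Tet2, which oxidises methylated cytosine, lay at 53.7, 85.8 and 70.7 CPM in WT and 48, 52.1, 53.4 and 42.3 CPM in KO (log2 fold change -0.51, SE 0.17). Kmt2a, a histone H3 lysine methyltransferase, lay at 142, 153 and 114 CPM in WT and 116, 99.4, 105 and 86.4 CPM in KO (-0.37, SE 0.13). Kmt2d and Dnmt1, a related methyltransferase and the maintenance DNA methyltransferase, both had log2 fold changes of -0.36. Dnmt1 was at -0.21 without KO replicate 2, and Tet2 at -0.34 without WT replicate 2. With exon reads alone these 4 genes lay between -0.53 and -0.36, and the median of the whole list was -0.008. Ezh2, of a Polycomb complex, overlapped between groups. The median of the list was -0.09, and ran from -0.20 without WT replicate 3 to -0.03 without WT replicate 2, for a median exon length of 6678 bp.

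Wnt ligands and receptors were among the signalling genes that separated within runs. Of 43 members tested, 8 lay below WT in both runs and 0 above, where the shares over all genes were 6.78% and 7.5%. The 8 were Wnt4, Wnt5a, Wnt7b, Porcn, Fzd6, Lrp4, Lrp5 and Lrp6, that is 3 ligands, the acyltransferase that Wnt secretion needs, and 4 receptors or co-receptors. Over the whole list the median was -0.04 (-0.16 without WT replicate 3), with 25 members lower in mean and 18 higher. At an unadjusted edgeR p under 0.05, 3 were lower and 1 higher, against 2.53% and 3.1% of all genes. Wnt5a lay at 8.76, 10.3 and 10.8 CPM in WT and 7.46, 6.21, 6.92 and 5.8 CPM in KO (log2 fold change -0.60, SE 0.24). Wnt4 lay at 58.5, 50.6 and 49.9 CPM in WT and 42.2, 35.5, 47 and 42 CPM in KO (-0.36, SE 0.14). Lrp6 lay at 93.4, 90.8 and 105 CPM in WT and 72.2, 89.8, 81.3 and 76 CPM in KO (-0.28, SE 0.13, and -0.18 without WT replicate 3). The target gene Axin2, given above, overlapped between groups. The higher member was Dkk3, a secreted Dickkopf family member, at 3.1, 4.26 and 8.46 CPM in WT and 3.66, 20.9, 15.5 and 13 CPM in KO, where KO replicate 1 lay between the WT libraries of its run. Its log2 fold change was 1.29 (SE 0.55), and 0.45 without KO replicate 2.

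The 35 genes of the TGF-β and BMP list had a median log2 fold change of 0.004, with 2 members lower at an unadjusted edgeR p under 0.05 (2.53% over all genes) and 0 higher (3.1%). Both are ligands. Bmp4 lay at 18.6, 12.7 and 11.2 CPM in WT and 10.8, 4.81, 9.05 and 9.12 CPM in KO (log2 fold change -0.71, SE 0.31). Tgfb2 lay at 21.6, 21.7 and 22.7 CPM in WT and 7.76, 12.7 and 12.2 CPM in KO replicates 2 to 4, but at 22.1 CPM in KO replicate 1, above the WT libraries of its run (-0.68, SE 0.29). Id1, a common BMP target, overlapped between groups (3.24 to 16.5 CPM in WT, 6.52 to 22.3 CPM in KO). Without KO replicate 2, the lowest library for both ligands, Bmp4 was at -0.40 and Tgfb2 at -0.43. Without KO replicate 1 Tgfb2 was at -1.14. Among 35 EGF-receptor and MAPK genes (median 0.02), the growth-factor receptors Igf1r and Insr lay below WT in both runs, with log2 fold changes of -0.31 (SE 0.13) and -0.30 (SE 0.13). Fgfr1 lay above, at 13.6, 9.25 and 16.9 CPM in WT and 13.7, 20, 29.2 and 21.5 CPM in KO (0.57, SE 0.22). Dusp5, a phosphatase of ERK, had a log2 fold change of 0.80 (SE 0.29), and 0.46 without KO replicate 2. In the Hippo-YAP list Tead1, the DNA-binding partner of YAP, was lower in all 4 KO libraries, at 94.6, 111 and 98.7 CPM in WT and 72.7, 71.8, 81 and 80.7 CPM in KO (-0.42, SE 0.12). Mkl1, an actin-regulated cofactor, was at -0.36 (SE 0.14). With exon reads, 26.1% of its total, Tead1 was at -0.28 with an unadjusted edgeR p of 0.109. The 24 members of the list had a median of -0.11. Notch genes (22, median -0.08) had 0 members at an unadjusted p under 0.05 by edgeR. The 20 clock genes (median -0.004) had 2 such members, both lower (2.53% over all genes), the transcription factors Npas2 (-0.60, SE 0.25) and Hlf (-0.35, SE 0.16), whose groups overlapped within a run. Without WT replicate 2 they were at -0.36 and -0.20, Hlf was at -0.22 without KO replicate 2, and with exon reads and without KO replicate 2 both were above 0.

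Of the inflammation list 27 of 35 genes passed the filter on low counts, and of the interferon and antigen presentation list 23 of 37. Tnf, the cytokine TNF-α, had 2, 1 and 3 reads in WT and 5, 28, 34 and 9 reads in KO. It was above WT in every KO library of its run, and highest in KO replicates 2 and 3, which also had the highest Langerhans and myeloid marker sums (406 and 398 CPM). The part of those cells in the Tnf reads was not tested. Il1r1, the interleukin-1 receptor, lay at 69.7, 68.7 and 63.9 CPM in WT and 66.6, 43.9, 43.4 and 46.3 CPM in KO (log2 fold change -0.40, SE 0.15). S100a8, a marker of inflamed epidermis, was at 0 reads in all WT libraries and at or under 0.497 CPM in KO. In the interferon and antigen presentation list, 18 of 23 members had a higher mean in KO (median 0.18). By edgeR's unadjusted p 3 of them were under 0.05 (3.1% over all genes), all above WT in both runs (7.5% over all genes): B2m, Gbp2 and Psmb8. B2m, the invariant chain of MHC class I, lay at 384, 384 and 411 CPM in WT and 544, 532, 451 and 474 CPM in KO (0.36, SE 0.13). Gbp2, an interferon-induced GTPase, lay at 12.3, 11.3 and 8.03 CPM in WT and 24.1, 15.8, 11.2 and 11 CPM in KO (0.64, SE 0.22). Psmb8, a subunit of the immunoproteasome, had a log2 fold change of 0.37 (SE 0.15), which was 0.24 without KO replicate 1 and 0.57 without WT replicate 3. Without KO replicate 2 the median of the list was 0.26, and without KO replicate 1, which had the highest mean of the list, it was 0.01. Isg15 and Ifit3, inducible interferon genes, lay at or under 1.22 CPM in every library.

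In the list of glycolysis and hypoxia genes 3 of 28 members were higher and 4 lower at an unadjusted edgeR p under 0.05, against 3.1% and 2.53% of all genes. Vegfa, the HIF target that drives vessel growth, lay at 19.1, 26.3 and 19.4 CPM in WT and 17.4, 17.4, 5.08 and 9.28 CPM in KO (log2 fold change -0.82, SE 0.27). Its value was -0.38 in the first run, -1.45 in the second and -0.38 without WT replicate 3. Pdk4, a kinase that inhibits pyruvate dehydrogenase, lay at 2.02, 3.41 and 3.15 CPM in WT and 4.72, 9.46, 4.42 and 10.4 CPM in KO (1.31, SE 0.41). Its paralogue Pdk2 lay at 3.77 to 6.16 CPM in WT and 6.85 to 10.3 CPM in KO. Slc2a1, the glucose transporter GLUT1, lay at 150, 145 and 118 CPM in WT and 143, 74.9, 104 and 103 CPM in KO, below WT in both runs. Ldha, lactate dehydrogenase A, overlapped between groups. The median of the 28 genes was -0.09, and ran from -0.22 without WT replicate 1 to -0.01 without WT replicate 3. Cholesterol and fatty acid genes had a median of 0.25, which became -0.02 without KO replicate 2 and 0.54 without WT replicate 3. Insig1, a brake on cholesterol synthesis, was at 0.84 (SE 0.31), and at 0.44 without KO replicate 2. Of 24 oxidative stress genes 5 lay above WT in both runs and 0 below, where the shares over all genes were 7.5% and 6.78%, and the median was 0.22, or 0.08 without KO replicate 2. Gpx4, the peroxidase that protects membrane lipids, lay at 29.3, 24.2 and 52.1 CPM in WT and 42.2, 42, 65.6 and 58.2 CPM in KO (0.48, SE 0.15), and Prdx1 had a log2 fold change of 0.33 (SE 0.13). The NRF2 targets Nqo1 and Hmox1 overlapped between groups. Heat shock and unfolded protein genes (24, median 0.12) included Hspe1, a mitochondrial chaperone (0.44, SE 0.16), and Atf4, the integrated stress response factor (0.32, SE 0.14, and 0.19 without KO replicate 2), while Hspa5 and Ddit3 overlapped. The 24 immediate early genes had a median of 0.09, which ran from -0.14 without WT replicate 1 to 0.36 without WT replicate 2 and was also below 0 without KO replicate 4. Fos ran from 149 to 645 CPM within WT and from 256 to 625 CPM within KO, and Ier3 was higher in both runs (0.83, SE 0.37).

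The other fibulins are relatives of the targeted gene. Fbln1 lay at 2.02, 3.41 and 8.6 CPM in WT and 4.11, 8.84, 10.6 and 11.4 CPM in KO, above WT in both runs, with a log2 fold change of 0.83 (SE 0.35) and an unadjusted p of 0.0373 by edgeR. It is also a fibroblast gene, and the value was 0.46 without KO replicate 2 and 1.25 without WT replicate 3. Efemp1, fibulin-3, lay at 83, 132 and 50.4 CPM in WT and 95.5, 50.9, 74.1 and 62.6 CPM in KO. Fbln2 lay at 0.674, 0.973 and 4.01 CPM in WT and 1.37, 2.02, 2.36 and 3.98 CPM in KO, and Hmcn1, hemicentin-1, at 12.9, 9.37 and 31.9 CPM in WT and 15.7, 43.1, 34.7 and 17.4 CPM in KO. These 3 genes overlapped between groups. The 14 fibulin and elastic fibre genes had a median of 0.43, of 0.08 without KO replicate 2 and of 0.01 with exon reads. Timp2, an inhibitor of matrix metalloproteinases, lay at 7.68, 6.57 and 17.9 CPM in WT and 12.2, 36.9, 25.5 and 20.7 CPM in KO (1.15, SE 0.45, with 0.56 without KO replicate 2 and 1.79 without WT replicate 3). Thbs1 and Tnc, matricellular proteins that bind cells and matrix, overlapped. The collagen I gene Col1a1 differed by -3.30 on the log2 scale (SE 1.20), which rested on WT replicate 3. Without that library the gene did not pass the filter on low counts.

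The 1-year difference was also set against that at 2 months in a fit to all 13 libraries. Of 15453 genes, 0 (0%) had an adjusted p under 0.05 for the genotype-by-age interaction in edgeR's quasi-likelihood test, 628 (4.06%) had an unadjusted p under 0.05, and the smallest adjusted p was 0.977. The 20 leading genes of the 1-year comparison were read at 2 months as well. The 10 higher genes had 2-month log2 fold changes between -0.62 and 0.06, and the 10 lower ones between -0.03 and 0.31, and the smallest unadjusted 2-month p among them was 0.0932 by edgeR. The SE of these values reached 0.89, for Gnb1l (-0.20), and was 0.81 for Rps27 (-0.08), so for these genes a 2-month difference as large as that at 1 year was not detectable. Pknox2, at 1.39 at 1 year, was at -0.62 (SE 0.34) at 2 months, and Egln1, at -0.53, was at 0.09. The leading genes were chosen on the 1-year values, and none of their interactions passed (smallest adjusted p 0.977 by edgeR). B2m was at -0.004, Tet2 at -0.04 and Wnt4 at -0.004 at 2 months.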

How the data were processed

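Total RNA of sorted cells was sequenced from low-input, strand-keeping libraries, per the labels' protocols. The deposited tables give, per the file headers, total gene reads as whole counts and the authors' TPM and RPKM for 49585 genes. The genome build was mm10, per the submitters' processing notes. The aligner, the counting rule and its use of strand are not given in the sources used here, so overlapping and antisense genes are uncertain. The comparisons, members and lists were chosen with earlier results of these data known, and genes that separated within both runs were named after their values were seen. A few list members are not reported here.

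Counts of the 7 libraries (7585340 to 11592177 reads each) were fitted with edgeR 4.0.16 in R 4.3.3: filterByExpr with a minimum count of 10, TMM scaling, robust quasi-likelihood, terms for genotype and run, and Benjamini-Hochberg adjustment over all 15166 genes at 0.05. CPM are scaled by TMM. Up to 10 genes per direction were named by smallest p, with anchors and up to 2 members per list. Limits from 0 counts use 3 counts and cover counting error only. Alternatives were DESeq2 1.42.0, limma 3.58.1 on log2(TPM + 1) and log2(TPM + 0.1), other scalings, filters, covariates and library subsets. Exon reads, added after seeing the data, were recovered from the deposited RPKM as whole multiples of 1 read (tolerance 0.01 reads) for all 26129 genes with exon signal, 75.6% of them at the GENCODE M21 exon length. That share is the check on the recovery, because a free length makes scarce genes whole without effort. Gene positions and exon lengths are from GENCODE M21 (GRCm38, the same assembly as mm10). The scripts were tested on simulated data.

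Same-numbered WT and KO libraries deviated together (correlations 0.6, 0.22 and 0.53), and numbers 1 and 2 lie in the first run and 3 in the second. Between numbers 1 and 2 within the first run the correlation was 0.03. No 2 libraries of a group agreed within sampling noise.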

Additional observations from a re-analysis of the deposited data

Results flagged for a closer look

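With 4 KO libraries, 114 reported values were examined for a library whose gap to its neighbour was above Dixon's critical value as a share of the range of the group, and 10 were found. For separate values drawn from a single normal group, chance gives about 1 in 20. That rate does not apply here, because the KO libraries come from both runs and many of the values are linked. KO replicate 1 stood apart in 7 of them. It was lowest for the mean log2 CPM of the spinous and granular genes (3.47, against 5.84 to 6.05), the stem-state genes (3.18), the cholesterol and fatty acid genes (4.35), the fibroblast markers (0.21) and the T-cell markers (-0.53), and for Insig1 (5.94 CPM). It was highest for Il1r1 (66.56 CPM, against 43.4 to 46.3). KO replicate 2 was highest for the matricellular proteins and proteases (mean log2 CPM 4.41), KO replicate 3 for Mkl1 (60.13 CPM) and KO replicate 4 for Hspe1 (37.14 CPM).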

How the results depend on the processing

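With the 7 libraries of the 1-year comparison, 0 genes passed at an adjusted p of 0.05 under every setting except 3. edgeR without a filter on low counts called 52 (34 higher; 51 of them were also among the genes tested after the filter), DESeq2 called 6, and the second run alone, with 1 WT library, called 27; the cause was not tested. Leaving out each library gave 0 to 0 calls, with smallest adjusted p between 0.113 (without KO replicate 2) and 1 and 391 to 1443 genes at an unadjusted p under 0.05. That last count, 853 in all 7 libraries, moved by over 1.5 times without WT replicate 2 (391) and KO replicate 3 (1443), with no run term (463), no filter (1804), the second run alone (490), unfiltered TPM (1351) and exon reads without KO replicate 2 (545). With the replicate number as a block, 0 were called and 705 had an unadjusted p under 0.05, and the block changed no call. The suprabasal score as a covariate left 0 calls (smallest adjusted p 0.254). The interaction with age had 0 calls with RLE scaling, with no run term and without any 1 library, and 103 with no filter. The Fbln7 difference lay between -1.4 and -0.668 CPM over the leave-one-out values, at -0.91 in TPM, and passed in none.

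Of 75 named genes followed across the settings, 73 kept their direction under all settings that gave a value. The settings refit the same counts on which these genes were chosen, the leading ones for separating within both runs. A kept direction was therefore likely from the start and is no support for them. Npas2 (0.25) and Hlf (0.012) turned positive with exon reads and without KO replicate 2. The log2 fold change of 23 of the 75 moved by over 1.5 times on leaving out some 1 library, of 16 without KO replicate 2 and of 8 without WT replicate 3. Leaving out WT replicate 3, the only WT library of its run, left the genotype difference to the first run. The sebaceous median was then 3.18, the granular 3.26, the hair follicle 1.08 and the cell-cycle -0.41. Low counts limit Fbln7, Tnf and the markers of rare cells.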
